A study of Mus musculus with 16 samples.

Results

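The interferon-induced transmembrane (Ifitm) family was followed through the immune cells of mouse melanomas. Its 4 members here, Ifitm1, Ifitm2, Ifitm3 and Ifitm6, were taken by gene symbol from the 32285 genes of each count matrix. They are 4 of the 7 Ifitm genes listed there, and were picked with their levels across cell types and their change in CD4 T cells already known, so those values are given as a description without a test. Levels are given in 6 gates, each a set of cells defined by counts of lineage marker genes: CD4 T, CD8 T, natural killer (NK), monocyte, macrophage and dendritic.

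The tumours were Bro4.1 B16 melanomas, a mouse melanoma line, grown under the skin of C57BL/6J mice from 1000000 implanted cells. The control tumour cells carried B2m, the gene of the small subunit of MHC class I molecules, and the B2m-null cells did not. CD40 is a receptor on dendritic cells, B cells and macrophages. Intraperitoneal doses of 100 µg of agonist anti-CD40, or of isotype antibody (rat IgG2a), were given on days 6, 9 and 12 before harvest of the tumours on day 14. CD45-positive cells were enriched on magnetic columns and given a hashtag antibody per mouse, and the mice of a pool shared 1 lane of a droplet 3′ RNA library. The groups were control tumours with isotype (5 mice, 2 lanes), control tumours with anti-CD40 (2 mice, whose single pool was run on 2 technical lanes), B2m-null tumours with isotype (5 mice, 2 lanes) and B2m-null tumours with anti-CD40 (4 mice, 2 lanes). The labels list 3 hashtags per pool, 6 of the 8 files hold 2, and mice were counted from the files. The sample labels attach the B2m genotype to the mouse and the study's design text attaches it to the tumour cells. The design text is followed here.

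The 8 lanes held 116552 barcodes and between 45985739 and 99264875 unique molecular identifiers (UMIs, each 1 counted RNA molecule), with lane medians of 1715 to 4225 UMIs per barcode. At most 48 barcodes were shared by any pair of lanes, and 49.0% to 90.4% of a lane's barcodes could be given to 1 mouse. B2m itself, counted in cells of the clusters named melanoma from pigment genes, was 1058 to 2135 counts per 1000000 UMIs (CPM) in the 4 control lanes and 191 to 491 CPM in the 4 B2m-null lanes. Levels below are CPM of all UMIs of a mouse's cells in a gate, for mice with at least 20 such cells. Each molecule gives 1 UMI at its 3′ end, so CPM is not scaled by transcript length. Mice of a lane share its library, and both control anti-CD40 mice came from 1 pool, so the spread between mice does not hold all the spread between libraries. The marker thresholds were set after seeing the marker counts, and 64.9% of CD4 T gate cells sat at the minimum of 1 Cd4 UMI.

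Ifitm proteins are small membrane proteins that interferons induce. They sit in the plasma membrane and in endosomes and make these membranes hard for enveloped viruses to fuse with. Ifitm1 is found mainly at the cell surface, while Ifitm2 and Ifitm3 are found mainly in endosomes. Type I interferons act on genes through the interferon-stimulated response element, and interferon-gamma acts through the gamma-activated site.

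The 4 genes lie on mouse chromosome 7 within 63.1 kb (GRCm38, GENCODE vM21). Ifitm2 (ENSMUSG00000060591) spans 140954837 to 140955987 on the minus strand. Ifitm1 (ENSMUSG00000025491) spans 140967221 to 140969825 on the plus strand. Ifitm3 (ENSMUSG00000025492) spans 141009586 to 141010770 and Ifitm6 (ENSMUSG00000059108) spans 141015699 to 141017924, both on the minus strand. Ifitm2 and Ifitm3 have 2 exons, and transcripts of the other two have 2 or 3. The genes are close copies of each other, so reads that match more than 1 of them may have been shared or dropped in counting, which was not tested.

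The 100 bases before each RefSeq transcription start (GRCm38.p6) are shown because the members differed in the interferon-type motifs found there. Each runs 5′ to 3′ on the gene's own strand, with motif matches in capitals.
Ifitm1, chr7:140967976-140968075, plus strand: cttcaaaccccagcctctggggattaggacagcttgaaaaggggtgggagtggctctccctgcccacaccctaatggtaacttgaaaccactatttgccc
Ifitm2, chr7:140955962-140956061, minus strand: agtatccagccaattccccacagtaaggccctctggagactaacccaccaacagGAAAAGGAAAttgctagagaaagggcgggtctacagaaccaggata
Ifitm3, chr7:141010745-141010844, minus strand: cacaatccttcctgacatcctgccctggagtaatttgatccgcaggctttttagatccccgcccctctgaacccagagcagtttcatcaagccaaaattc
Ifitm6, chr7:141016893-141016992, minus strand: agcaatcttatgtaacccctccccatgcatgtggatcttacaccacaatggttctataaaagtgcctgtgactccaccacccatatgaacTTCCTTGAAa
The search covered both strands of the RefSeq windows from 250 bases before to 50 bases after the start. The response element core (TTTC and TTTC with any 2 bases between) was found in 3.44% of the 32851 windows of the genome and the gamma-activated core TTCNNNGAA in 8.30%. Ifitm2 held 1 response element match, 46 bases before the start. Ifitm6 held 1 gamma-activated match, 10 bases before the start. In Ifitm3 the matches lay just after the start, in a stretch that runs from base 3 to base 29.
Ifitm3, chr7:141010716-141010742, minus strand: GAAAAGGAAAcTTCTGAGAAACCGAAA
Those 27 bases held 2 response element matches and 1 gamma-activated match, TTCTGAGAA, which overlaps the second of them. Ifitm1 held neither motif in this window. The windows of Ifitm1 and Ifitm6 lie inside the gene spans given above, so the outer ends of those spans were not searched. A match is a description of the letters only.

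The members split the gates in different ways. Ifitm3 was the most abundant member by median over all mice in every gate, at 46.7% of the summed member level in dendritic cells and 71.3% in monocytes. Within groups Ifitm1 had a higher median in CD4 T cells of control anti-CD40 mice (328 CPM against 288 CPM of Ifitm3). The same held in CD8 T cells of B2m-null anti-CD40 mice (73.0 against 66.8 CPM). The Ifitm3 median over mice was 3373 CPM in monocytes, 1515 in macrophages, 761 in dendritic cells, 293 in CD4 T cells, 152 in NK cells and 77.2 in CD8 T cells. The monocyte range (2495 to 4611 CPM) lay above the macrophage range (787 to 2215 CPM), and monocytes were higher in 16 of 16 mice. Ranges of the neighbours further down overlapped, though macrophages exceeded dendritic cells in 15 of 15 mice. That order depended on the gates: with named clusters the Ifitm3 median was 1516 CPM in dendritic cells and 1444 CPM in macrophages.

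Ifitm2 followed Ifitm3 at a lower level. Its medians were 1026 CPM in monocytes, 660.3 in macrophages, 616 in dendritic cells, 179.8 in CD4 T cells, 54.5 in NK cells and 43.8 in CD8 T cells. Every pair of neighbours in that order overlapped. Monocytes were above macrophages in 16 of 16 mice all the same. With named clusters the Ifitm2 median was higher in dendritic cells (801 CPM) than in macrophages (618 CPM).

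Ifitm6 had its highest median in monocytes. They had a median of 231 CPM (127 to 355), against 25.2 CPM (0 to 50.6) in dendritic cells, a 9.19-fold ratio of medians with no overlap. Medians were 21.6 CPM in macrophages, 4.01 in NK cells, 1.71 in CD8 T cells and 0 in CD4 T cells. The NK range ran from 0 to 128 CPM and so reached the monocyte range. The mouse at 128 CPM had 4 Ifitm6 UMIs in 21 NK cells. Without the clusters of mixed cells described below it had none in 18 cells, under the minimum of 20 cells for a level, and the other mice were at 4.92 CPM or less. In NK cells of B2m-null tumours with anti-CD40 no Ifitm6 UMI was counted in 277 cells, which allows a level of up to 4.48 CPM by counting error alone.

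Ifitm1 had another order. Over all mice dendritic cells were highest (median 225 CPM), followed by CD4 T cells (131), monocytes (99.3), NK cells (37.7), CD8 T cells (34.6) and macrophages (9.87). All neighbouring ranges overlapped. This order changed with the choice of cells: without the mixed clusters NK cells (4.64 CPM) lay below macrophages (9.87 CPM) and CD4 T cells (52.7 CPM) below monocytes (99.6 CPM), and with named clusters NK cells were at 8.55 CPM and macrophages at 9.44 CPM. In the gates Ifitm1 made up 0.447% of the summed member level in macrophages and 21.6% in CD4 T cells. Within the anti-CD40 groups the CD4 T gate had a higher Ifitm1 median than the dendritic gate. These medians were 328 against 148 CPM in control and 416 against 134 CPM in B2m-null tumours. With named clusters this order was reversed. The CD4 T and dendritic medians were then 225 and 440 CPM in control and 381 and 572 CPM in B2m-null tumours.

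**Figure D1:**
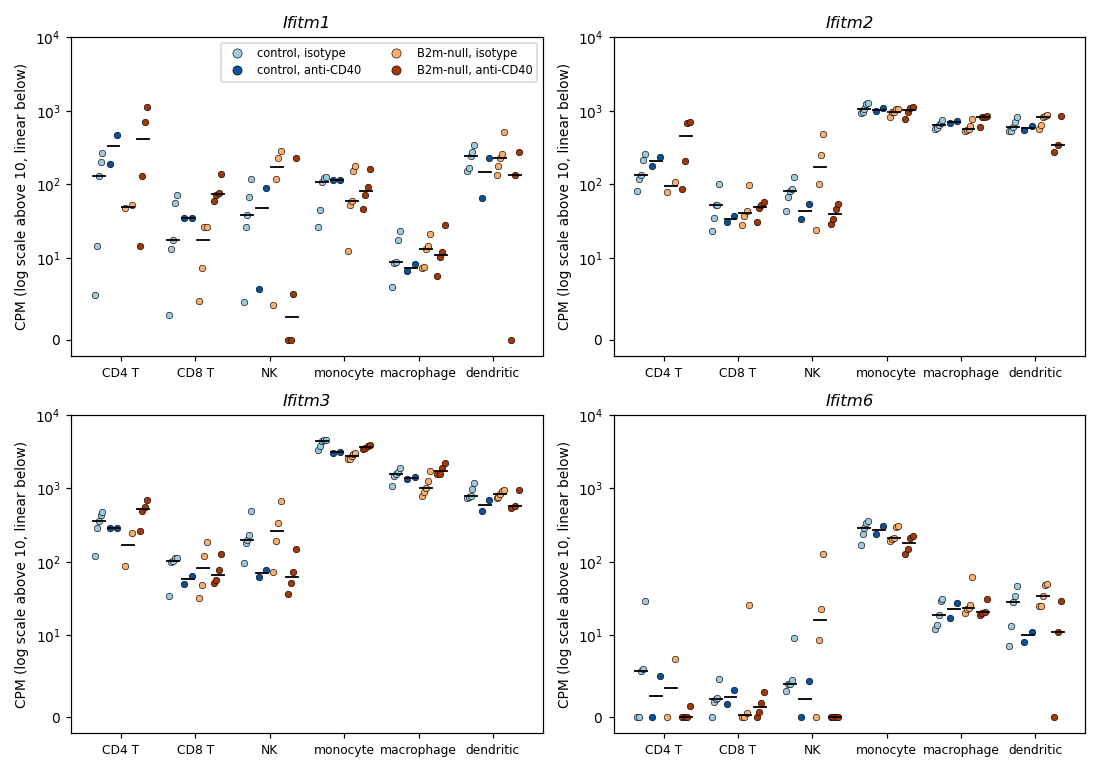
CPM of each member per mouse (points) in the 6 gates, coloured by group, with the group median as a bar. The y axis is logarithmic above 10 CPM and linear below. Ifitm2, Ifitm3 and Ifitm6 have their highest medians in monocytes, 1 NK mouse at 128 CPM of Ifitm6 reaches the monocyte range, and no mouse exceeds 28.0 CPM of Ifitm1 in macrophages, whose median is the lowest here but not once mixed clusters are left out (NK 4.64 CPM).

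Free RNA and cells captured together can give a lymphocyte barcode myeloid UMIs. The macrophage transcripts C1qa, C1qb, C1qc, Lyz2 and Apoe reached 0.756% to 2.47% of their macrophage level in the CD4 T gate, 0.665% to 1.90% in the CD8 T gate and 1.12% to 3.64% in the NK gate. These gates admit only cells with at most 5 UMIs summed over myeloid markers that include C1qa, C1qb, C1qc and Lyz2. The gates thus held down the shares of those genes but not of the Ifitm genes, so the shares cannot show whether Ifitm UMIs exceed carry-over. Ifitm3 reached 21.2% to 31.2%, 4.52% to 6.23% and 4.46% to 15.3% of its macrophage level in the same gates. Ifitm2 reached 20.02% to 78.7% in the CD4 T gate, 4.89% to 6.87% in the CD8 T gate and 5.20% to 12.0% in the NK gate. These shares include the clusters of mixed cells. They were not computed without them.

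After each cell was thinned to 1000 UMIs, Ifitm3 was detected in 84.9% to 93.7% of monocytes across the 4 groups and in 52.6% to 71.7% of macrophages. In CD8 T cells it was detected in 4.13% to 6.09% of cells. Ifitm6 was detected in 14.9% to 23.1% of monocytes and in at most 2.96% of macrophages. Ifitm1 was detected in 1.24% to 1.42% of CD8 T cells outside the B2m-null anti-CD40 group, a share within the 0.729% to 1.51% of macrophages, and in 3.47% inside that group. Thinning left out 778 of 12239 gated cells in control isotype, 1820 of 12642 in control anti-CD40, 303 of 9266 in B2m-null isotype and 325 of 11243 in B2m-null anti-CD40.

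In CD4 T cells the Ifitm1 values are given as a description, because the members were chosen with them known. Whole-gate levels were 5.39, 14.6, 129.6, 203 and 265 CPM in control isotype mice and 186 and 470.2 CPM in control anti-CD40 mice. In B2m-null tumours they were 47.1 and 52.7 CPM in the 2 isotype mice with enough cells, and 14.5, 131, 702 and 1118 CPM in the 4 anti-CD40 mice. Groups overlapped in both genotypes. The 2 highest mice came from 1 pool, which gave 97.9% of the 1050 Ifitm1 counts of its group, while the mice of the other pool had 20 and 43 cells. Both B2m-null isotype mice used came from 1 pool of that group and so from 1 lane. The mice of its other pool had 8, 7 and 4 cells.

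The isotype level depended on a few cells of clusters that mixed T cell and myeloid markers. Cluster 32, led by the dendritic gene Cd209a beside the T cell genes Tnfrsf4 and Ctla4, was 1 of 4 clusters in which over 10% of cells had both kinds of marker. These clusters held 17 of the 216 control isotype cells of the gate and 83 of their 85 Ifitm1 counts. Without them, Ifitm1 was at 0, 0, 0 and 6.56 CPM in the 4 control isotype mice that kept 20 cells, against 182 and 470.2 CPM in control anti-CD40 mice. In B2m-null tumours it was then 2.52 and 52.7 CPM with isotype and 70.7, 706 and 1156 CPM in the 3 anti-CD40 mice that kept 20 cells. Among mice that kept 20 cells the groups then did not overlap in either genotype, but removing those clusters was chosen after seeing the data. The B2m-null anti-CD40 mouse at 14.5 CPM over the whole gate no longer had 20 cells. It is not in this comparison, and the other 3 mice held 1035 of the 1036 Ifitm1 counts of that group. The whole-gate anti-CD40 comparisons called 11.5% of genes in control and 3.75% in B2m-null tumours, and 0.471% for the difference of these effects.

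Summed over cells outside the mixed clusters, control tumours gave 2 Ifitm1 UMIs in 199 isotype cells and 146 in 264 anti-CD40 cells. B2m-null tumours gave 10 in 135 isotype cells and 1036 in 518 anti-CD40 cells. Cells with at least 1 Ifitm1 UMI were 1.01% and 14.0% of control cells with isotype and anti-CD40, and 2.96% and 29.7% of B2m-null cells, at median depths of 2263, 1479, 2906 and 2267.5 UMIs in that order. The anti-CD40 cells thus had the larger share in each genotype at the lower depth.

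Ifitm2 and Ifitm3 depended on the same cells. Over the whole gate Ifitm2 was 80.9 to 261 CPM in control isotype mice and 179.8 and 238 CPM with anti-CD40, and Ifitm3 was 119 to 476 CPM and 287 and 288 CPM, so both overlapped and the Ifitm3 median was lower with anti-CD40. In B2m-null tumours the whole-gate values were 79.0 and 108 CPM against 87.1 to 699 CPM for Ifitm2, and 87.8 and 249 CPM against 261 to 684 CPM for Ifitm3. Outside the mixed clusters, Ifitm2 was 32.8 to 68.4 CPM in control isotype mice, 179 and 238 CPM with anti-CD40, 58.0 and 79.0 CPM in B2m-null isotype mice and 135 to 703 CPM with anti-CD40. Ifitm3 was 65.0 to 154 CPM, 234 and 288 CPM, 55.5 and 87.8 CPM, and 467 to 572 CPM in the same order. For neither gene did isotype and anti-CD40 mice of a genotype overlap after this removal, among mice that kept enough cells for a level. Ifitm6 stayed at or below 5.06 CPM in all 11 of these mice. A control isotype mouse and a B2m-null anti-CD40 mouse were left out for too few cells, so the lack of overlap holds only for the mice kept. Over the whole gate that B2m-null anti-CD40 mouse was at 14.5 CPM of Ifitm1, below both B2m-null isotype mice. Its whole-gate Ifitm2 level, 87.1 CPM, lay between theirs. The 3 B2m-null anti-CD40 mice kept held 841 of the 845 Ifitm2 counts and 685 of the 700 Ifitm3 counts of their group.

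**Figure D2:**
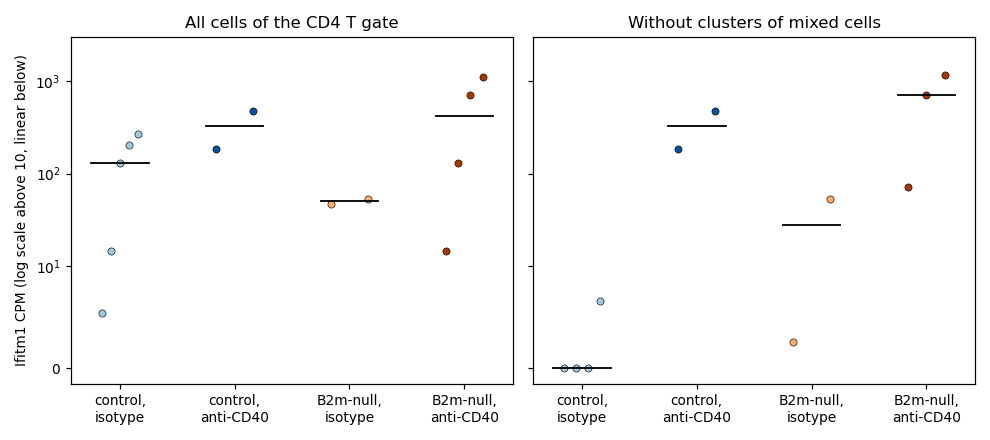
Ifitm1 CPM per mouse in the CD4 T gate by group, over all cells of the gate (left) and without the 4 clusters of mixed cells (right), with bars at the group median; the y axis is logarithmic above 10 CPM and linear below. Control isotype mice reach 265 CPM on the left and at most 6.56 CPM on the right, while the highest anti-CD40 mice are at 470.2 CPM on both sides in control tumours and at 1118 and 1156 CPM in B2m-null tumours.

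Within CD4 T cells the clusters differed. In cluster 15, led by Cxcr6, Ccl1 and Cd3g, Ifitm1 summed over cells was 14.7 CPM in control isotype, 399.8 in control anti-CD40, 0 in B2m-null isotype and 999 in B2m-null anti-CD40. The last value was 193 CPM in one pool (25 cells) and 1055 CPM in the other (361 cells). Cluster 29, led by Tnfrsf4, Ctla4 and Il2ra with Foxp3, the factor that defines regulatory T cells, among its leading genes, lay between 2.02 and 21.2 CPM in all 4 groups. The mix of the gate moved too, since cluster 15 made up 24.1% of control isotype cells, 67.2% of control anti-CD40, 29.4% of B2m-null isotype and 73.8% of B2m-null anti-CD40. Clusters 15 and 29 together, the clusters named CD4 T, gave median Ifitm1 levels of 7.11, 225, 22.6 and 381 CPM in that order of groups. Among gated cells these clusters held 974 of the CD4 T gate but also 642 of the CD8 T gate.

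Between genotypes under isotype, no member passed the test in the CD4 T gate. Tests here and below are edgeR quasi-likelihood fits of counts summed per mouse and gate, with Benjamini-Hochberg adjustment over all genes of the gate and a threshold of 0.05. Under isotype 0% of the 4458 CD4 T genes passed (0 genes, 177 at an unadjusted p under 0.05, and 0 with DESeq2). Under anti-CD40 1.44% passed, but the comparison uses the anti-CD40 values known when the members were chosen, so its log2 differences are a description. In the gate B2m-null was above control by 0.86 (SE 0.75) for Ifitm1, 1.25 (SE 0.48) for Ifitm2 and 0.88 (SE 0.39) for Ifitm3. Without the mixed clusters the Ifitm3 difference was 1.08 (SE 0.25). In the clusters named CD4 T the differences were 1.33 (SE 0.32) for Ifitm2 and 1.09 (SE 0.21) for Ifitm3. Ifitm1 levels overlapped between genotypes in both settings. They were 182 and 470.2 CPM against 70.7 to 1156 CPM without the mixed clusters, control first. In the clusters they were 173 and 277 CPM against 68.4 to 728 CPM. Ifitm2 without the mixed clusters overlapped too (179 and 238 CPM against 135 to 703 CPM).

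Ifitm3 in monocytes carried the only member difference between tumour genotypes under isotype. Control isotype mice were at 3284, 3726, 4368, 4569.6 and 4611 CPM, and B2m-null isotype mice at 2495, 2510.3, 2785, 2949 and 2999 CPM. All 5 B2m-null isotype mice lay below each of the other 11 mice of the study. The log2 fold change was -0.63 (SE 0.11, adjusted p = 0.00160), in a comparison that called 2.21% of genes. It was the 1 that passed of 21 member-and-gate pairs tested across the 6 gates.

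In monocytes of B2m-null tumours Ifitm3 was higher with anti-CD40 than with isotype. B2m-null anti-CD40 mice were at 3461, 3487, 3745 and 3824 CPM, all above the 5 B2m-null isotype mice, with a log2 fold change of 0.58 (SE 0.11, adjusted p = 0.000764) where 21.2% of genes were called. Control anti-CD40 mice were at 3044 and 3102 CPM, below all 5 control isotype mice, with a change of -0.40 (SE 0.14, adjusted p = 0.129) where 3.9% were called. Between genotypes under anti-CD40 the gate gave 0.34 (SE 0.15, adjusted p = 0.201), which did not pass, where 3.22% were called. With clusters named monocyte in place of the gate the control change was -0.95 (adjusted p = 0.000619, where 11.9% were called), and the genotypes differed under anti-CD40 by 1.14 (adjusted p = 0.000466, where 5.2% were called). The anti-CD40 effects of the genotypes differed by 0.98 (SE 0.18, adjusted p = 0.00220), where 6.3% were called. These comparisons share isotype mice, B2m-null or control, so they are not all independent of each other.

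With the lane in place of the mouse as the unit, the values stayed near (-0.62, 0.59 and 1.01) but none passed, with adjusted p of 0.454, 0.0700 and 0.175 by the same edgeR test. The genotype difference under isotype also missed the threshold without the first control isotype lane (adjusted p = 0.212) or without the first B2m-null isotype lane (adjusted p = 0.0763).

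**Figure D3:**
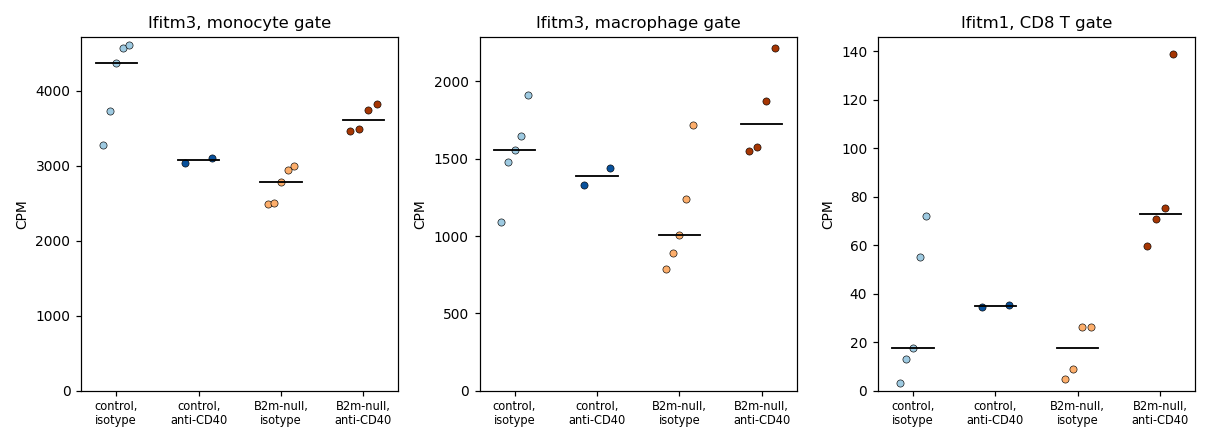
CPM per mouse by group for Ifitm3 in the monocyte gate, Ifitm3 in the macrophage gate and Ifitm1 in the CD8 T gate, on linear axes from 0, with bars at the group median. In monocytes the 5 B2m-null isotype mice (2495 to 2999 CPM) lie below all other mice, and in CD8 T cells the 4 B2m-null anti-CD40 mice (59.8 to 139 CPM) lie above the 4 B2m-null isotype mice.

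The monocyte gate held different cells in different groups. Cluster 1, led by Ly6i, Nos2 and Saa3 and left without a cell type name, made up 56.8% of it in B2m-null anti-CD40, 31.0% in control anti-CD40, 9.66% in control isotype and 4.59% in B2m-null isotype. Cluster 2, led by Chil3 and Vcan, genes of classical monocytes, made up 13.1%, 26.9%, 49.5% and 44.8% in the same order. Ifitm3 summed over cells was lower in B2m-null than in control isotype in 9 of 9 clusters with enough cells (log2 ratios -1.44 to -0.26). It was higher with anti-CD40 than with isotype in B2m-null tumours in 8 of 8 clusters (0.26 to 1.12, median 0.51). For these 2 comparisons the direction inside each cluster was that of the gate, but the clusters share mice and lanes and are not replicates. In control tumours Ifitm3 with anti-CD40 and isotype was 2943 and 2947 CPM in cluster 1. It was 3920 and 5442 CPM in cluster 2, and 2575 and 4211 CPM in cluster 36. The part of the cluster mix in the Ifitm3 result was not tested.

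**Figure D4:**
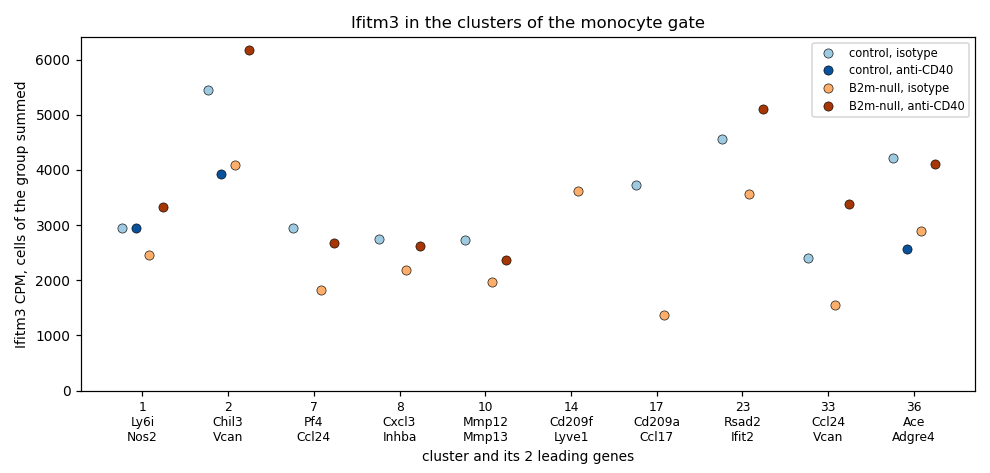
Ifitm3 CPM, cells of a group summed, in the clusters that make up the monocyte gate, named by number and leading genes; a point stands for 1 group with enough cells. B2m-null isotype is below control isotype in all 9 clusters that hold both, and B2m-null anti-CD40 is above B2m-null isotype in all 8.

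Neutrophil transcripts had higher medians with anti-CD40 in this gate, with no test, and the B2m-null groups overlapped. S100a8 and S100a9 together were at 2.68 to 18.8 CPM in control isotype mice, 51.2 to 56.1 in control anti-CD40, 2.46 to 66.5 in B2m-null isotype and 30.6 to 112 in B2m-null anti-CD40. Their part in the Ifitm3 result was not tested. In monocytes restricted to classical markers (Ly6c2, Chil3 and Vcan, with no Ace or Treml4), Ifitm3 was 2352 to 3145 CPM in B2m-null isotype, 3337 to 4998 in control isotype, 3806 to 4386 in B2m-null anti-CD40, and 3057 and 3569 in control anti-CD40. B2m-null isotype mice again did not overlap either the control isotype or the B2m-null anti-CD40 mice.

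In the monocyte gate Ifitm1, Ifitm2 and Ifitm6 did not pass any comparison. Ifitm2 was 933 to 1282 CPM in control isotype mice and 819.7 to 1069 CPM in B2m-null isotype mice (log2 fold change -0.23, SE 0.12, adjusted p = 0.449). Ifitm6 was 171 to 355 CPM and 189.7 to 306 CPM in these groups, 127 to 223 CPM in B2m-null anti-CD40, and 239.5 and 304 CPM in control anti-CD40. Its groups overlapped in each of these comparisons apart from the 2 anti-CD40 groups, whose difference was -0.48 (SE 0.27, adjusted p = 0.361) where 3.22% of genes were called. The clusters named monocyte are 2 and 36, without cluster 1, and hold 282 B2m-null anti-CD40 cells against 1217 in the gate. In that group Ifitm6 was 107 CPM in cluster 1 of the gate and 682 CPM in cluster 2. With clusters named monocyte in place of the gate, Ifitm6 with anti-CD40 in B2m-null tumours turned from -0.20 (SE 0.21, adjusted p = 0.557) to 0.75 (SE 0.18, adjusted p = 0.00806, where 9.79% were called). The genotype difference under anti-CD40 turned from -0.48 to 0.71 (adjusted p = 0.0759), and the difference of the effects from -0.17 to 1.07 (adjusted p = 0.0200, where 8.45% were called). Ifitm2 passed in those clusters with anti-CD40 in B2m-null tumours (0.55, adjusted p = 0.0124), between genotypes under anti-CD40 (0.72, adjusted p = 0.0237) and for the difference of the effects (0.98, adjusted p = 0.00812).

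In macrophages both Ifitm2 and Ifitm3 rose with anti-CD40 in B2m-null tumours. Ifitm3 was 787, 889, 1008, 1239 and 1718 CPM with isotype and 1549, 1576, 1875 and 2215 CPM with anti-CD40, with 1 isotype mouse inside the anti-CD40 range. The log2 fold change was 0.89 (SE 0.18, adjusted p = 0.00134). Ifitm2 went from 536 to 761 CPM with isotype to 603, 819, 825 and 851 CPM with anti-CD40, a change of 0.57 (SE 0.12, adjusted p = 0.00122). This comparison called 36.8% of all 12007 genes tested, so 2 of 4 members is near its background.

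In control macrophages Ifitm3 was at 1091 to 1912 CPM with isotype and 1333 and 1443 CPM with anti-CD40 (log2 fold change 0.01, SE 0.23, adjusted p = 0.981, where 19.5% of genes were called). The difference between the anti-CD40 effects was 0.87 (SE 0.30, adjusted p = 0.0548, where 16% were called), so it is not shown to differ between genotypes. Under isotype, B2m-null macrophages were lower in Ifitm3 by 0.51 on the log2 scale without passing (SE 0.17, adjusted p = 0.0720, where 9.64% were called). Under anti-CD40 the genotypes differed in Ifitm3 by 0.37 (SE 0.24, adjusted p = 0.349, where 8.66% were called). The clusters also changed here: cluster 1 held 20.2% of B2m-null anti-CD40 macrophage-gate cells, while cluster 18, led by Gas6 and Igf1, was the most common in B2m-null isotype at 19.4%.

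In CD8 T cells Ifitm1 rose with anti-CD40 in B2m-null tumours, from 4.68, 8.75, 26.4 and 26.4 CPM with isotype to 59.8, 70.8, 75.2 and 139 CPM. The groups did not overlap. The log2 fold change was 2.13 (SE 0.57, adjusted p = 0.0232), where 8.46% of genes were called. Control isotype mice spanned 3.02 to 72.0 CPM and control anti-CD40 mice were at 34.6 and 35.1 CPM (change 0.51, SE 0.49, adjusted p = 0.434, where 37.2% were called). In the clusters named CD8 T the control change was 1.91 (SE 0.50, adjusted p = 0.00705) and passed, where 31.7% were called. The effects in the genotypes differed by 1.62 (SE 0.77, adjusted p = 0.187, where 11% were called), so a difference between genotypes was not shown. Under anti-CD40, B2m-null CD8 T cells were higher by 1.39 (SE 0.45, adjusted p = 0.0546, where 9.79% were called).

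The CD8 T call was lost with all cells counted by lane (log2 fold change 1.38, adjusted p = 0.290), with the lane as the unit (2.22, 0.0847), with a stricter cell filter (1.68, 0.121), with at least 50 cells per mouse (2.05, 0.0516), and without either B2m-null isotype lane (adjusted p = 0.103 and 0.244). In B2m-null isotype, cluster 16, led by Gzmc, Ifng and Gzmb, held 33.5% of the gate, with 20.4% in cluster 20, 13.5% in cluster 4 and 12.0% in cluster 22, and in B2m-null anti-CD40 clusters 4, 22 and 28 held 40.9%, 20.1% and 16.2%. Ifitm1 in B2m-null anti-CD40 was 59.6, 101 and 101 CPM in clusters 4, 22 and 28, and 29.8 CPM in cluster 16. In B2m-null isotype it was 0 in cluster 4, 28.1 CPM in cluster 22 and 14.9 CPM in cluster 16. Without cluster 15, the 4 B2m-null anti-CD40 mice were at 57.3 to 135 CPM and the 4 B2m-null isotype mice at 4.74 to 26.5 CPM.

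Ifitm2 and Ifitm3 in the CD8 T gate overlapped between all groups. Ifitm3 was 34.0 to 113 CPM in control isotype, 50.7 and 64.9 in control anti-CD40, 32.8 to 184 in B2m-null isotype and 51.0 to 129.6 in B2m-null anti-CD40. The clusters named CD8 T include cluster 20, led by Tcf7 and Klra7, whose leading genes hold neither Cd8a nor Cd8b1. In the clusters named CD8 T, which replace the marker gate, the picture differed. There Ifitm3 was 0, 28.7, 37.7 and 39.0 CPM in B2m-null isotype and 86.7, 87.1, 117 and 191 CPM in B2m-null anti-CD40, a change of 2.15 (SE 0.37, adjusted p = 0.00106, where 10.9% were called). Ifitm2 changed by 1.81 (SE 0.33, adjusted p = 0.00196) and Ifitm1 by 3.10 (SE 0.53, adjusted p = 0.00104) in the same clusters. Between genotypes under anti-CD40 those clusters gave 1.96 for Ifitm1 (adjusted p = 0.00631), 1.39 for Ifitm2 (adjusted p = 0.00462) and 1.68 for Ifitm3 (adjusted p = 0.00359), where 12.1% were called. The difference of the effects was 1.67 for Ifitm2 (adjusted p = 0.0182) and 2.62 for Ifitm3 (adjusted p = 0.00197), and Ifitm1 did not pass (adjusted p = 0.337), where 13.8% were called.

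NK cells had no member past the test in any of the 5 comparisons. Those called 1.95% of genes between genotypes under anti-CD40, 0.0203% under isotype and 1.28% for the difference of the effects. Ifitm3 was 97.4 to 494 CPM in control isotype, 62.6 and 77.2 CPM in control anti-CD40, 73.3 to 670.2 CPM in B2m-null isotype and 36.4 to 152 CPM in B2m-null anti-CD40. Both control anti-CD40 mice lay below the 5 isotype mice, with a log2 fold change of -1.51 (SE 0.53, adjusted p = 0.113, where 3.49% of genes were called). Without the mixed clusters the isotype mice were at 58.1 to 115 CPM, against 31.6 and 47.3 CPM. Ifitm1 in NK cells depended on the choice of cells. Anti-CD40 over isotype in B2m-null tumours was -0.12 (SE 1.03, adjusted p = 0.976, where 5.69% were called) in the gate and 3.40 (SE 0.75, adjusted p = 0.00354, where 8.95% were called) in the clusters named NK. Without the mixed clusters it was 3.34 (SE 1.17, adjusted p = 0.0804) and did not pass, where 6.79% were called. In the gate 1 mouse held 35 of the 36 Ifitm1 counts of the B2m-null anti-CD40 group.

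The dendritic gate had no member past the test either, which changed with the choice of cells. With clusters named dendritic in place of the gate, anti-CD40 in B2m-null tumours turned from -0.17 to 0.78 for Ifitm3 (adjusted p = 0.00286), from -0.59 to 0.97 for Ifitm1 (adjusted p = 0.0265) and from -0.75 to 0.93 for Ifitm6 (adjusted p = 0.0357), where 11.2% were called. The difference of the effects on Ifitm3 was then 1.04 (adjusted p = 0.0228, where 3.62% were called). The gate held 52 cells in control anti-CD40 and 88 in B2m-null anti-CD40, against 858 and 832 with isotype, and called 0.586% and 1.91% of genes in the 2 anti-CD40 comparisons, 0.894% and 0.293% between genotypes under isotype and anti-CD40, and 0.493% for the difference of the effects. Ifitm3 was 738 to 1189 CPM in control isotype and 487 and 704 CPM in control anti-CD40 (log2 fold change -0.57, SE 0.25, adjusted p = 0.422). Ifitm1 was 149.9 to 347 CPM and 133 to 515 CPM in the control and B2m-null isotype groups, which overlapped.

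Members differed among dendritic subsets, with no test. Among isotype mice, type 2 conventional dendritic cells (cDC2, marked by Cd209a, Sirpa and Clec10a) had 1887 to 3747 CPM of Ifitm3, type 1 cells (cDC1, marked by Xcr1 and Clec9a) 141 to 549.7 CPM, and mature cells with Ccr7 and Fscn1 383 to 695 CPM. The cDC2 range did not overlap either of the others, while cDC1 and mature cells overlapped. Ifitm2 overlapped among all 3 subsets, at 801 to 1779.8 CPM in cDC2, 257 to 858 CPM in cDC1 and 384 to 859 CPM in mature cells. Ifitm1 was 251 to 1109.7 CPM in cDC2 and 3.51 to 242 CPM in cDC1. Ifitm6 was 61.3 to 312 CPM in cDC2 and 0 to 11.8 CPM in cDC1. Within cDC2, Ifitm3 was 2608, 3169, 3211, 3380.2 and 3747 CPM in control isotype mice and 1887, 1889, 2036, 2036 and 2626 CPM in B2m-null isotype mice, so the lowest control mouse lay just under the highest B2m-null mouse.

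**Figure D5:**
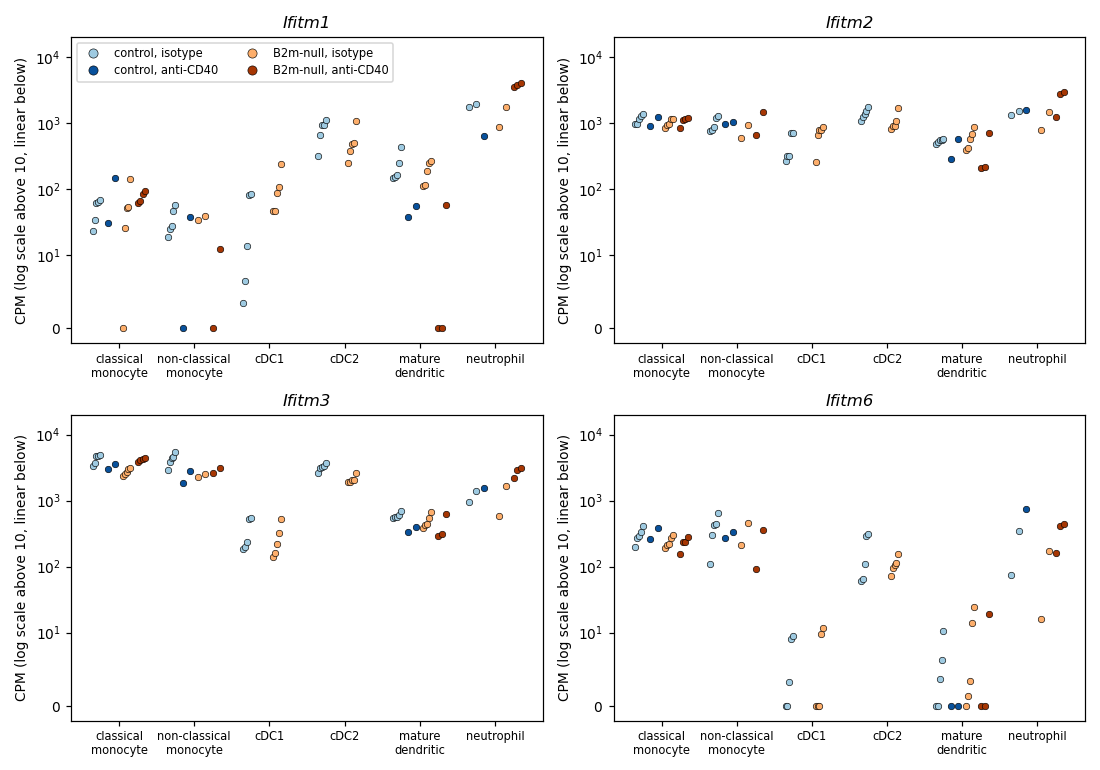
CPM of each member per mouse (points) in monocyte and dendritic subsets and in neutrophils, for mice with at least 10 cells of the subset, coloured by group; the y axis is logarithmic above 10 CPM and linear below. cDC2 have a median Ifitm6 of 107 CPM, below the 266 CPM of classical monocytes, and lie above monocytes in Ifitm1, cDC1 lie below cDC2 in Ifitm1, Ifitm3 and Ifitm6, and neutrophils have the highest median Ifitm1.

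Other interferon-induced genes were counted from lists that hold no member. In monocytes under isotype, 16 of 25 tested type I interferon-induced genes were lower in B2m-null tumours and none was higher, where 2.21% of all genes were called (median log2 fold change -0.88, against 0.02 over all genes). Isg15, a ubiquitin-like modifier, fell by 1.46 on the log2 scale (adjusted p = 0.000104), Zbp1, a nucleic acid sensor, fell by 0.99 (adjusted p = 0.000918), and Irf7, a factor that amplifies type I interferon, fell by 0.97 (adjusted p = 0.000300). Of 19 interferon-gamma-induced genes 13 were lower and none higher (median -0.89), among them the chemokine Cxcl10, which fell by 1.43 (adjusted p = 0.000872). Ifitm3, at -0.63, changed in the same direction. These counts rested on single lanes: they were 2 type I and 0 interferon-gamma genes without the first control isotype lane, 6 and 2 without the first B2m-null isotype lane, and 0 and 0 with the lane as the unit.

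With anti-CD40 in B2m-null monocytes, 6 of 25 type I genes (median 0.20) and 13 of 19 interferon-gamma genes (median 0.91) were higher and none was lower. With 21.2% of all genes called, the type I count is near background. Psmb8, an immunoproteasome subunit, rose by 1.51 (adjusted p = 1.38e-06) and Iigp1, an immunity-related GTPase, by 3.20 (adjusted p = 5.75e-08). In control monocytes 11 of 25 type I genes were lower with anti-CD40 and none higher (median -1.06), and 1 of 19 interferon-gamma genes was higher. That comparison called 3.9% of all genes, so the interferon-gamma count is near background. The difference of the effects was higher for 14 of 25 type I genes and lower for none (median 1.41), and higher for 5 of 19 interferon-gamma genes, where 6.3% of all genes were called. With the lane as the unit the differences numbered 4 and 0, and without the first control isotype lane 8 and 2. Type I genes lower with anti-CD40 in control monocytes numbered 5 under either of these settings.

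In macrophages under isotype, 11 of 25 type I genes and 18 of 20 interferon-gamma genes were lower in B2m-null tumours, and none was higher, where 9.64% of all genes were called. Without the first control isotype lane these counts were 0 and 0, without the first B2m-null isotype lane 3 and 2, and with the lane as the unit 15 and 19. With anti-CD40 in B2m-null tumours 8 and 19 of these were higher, none was lower, and 36.8% of all genes were called in either direction. In CD8 T cells anti-CD40 raised 5 of 20 type I and 7 of 19 interferon-gamma genes in B2m-null tumours, where 8.46% of all genes were called. That comparison called only 3 genes in all with the lane as the unit. In control tumours anti-CD40 raised 4 type I and 13 interferon-gamma genes, where 37.2% were called in either direction. Of the 9512 genes tested there 1812 were higher, so the type I count is near that background. Of 10 interferon receptor and signalling genes, anti-CD40 in B2m-null tumours raised 1 and lowered 3 in monocytes (21.2% of all genes called), raised 2 and lowered 1 in macrophages (36.8%) and raised 2 and lowered none in CD8 T cells (8.46%). The macrophage count is below its background.

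Of 9 other membrane restriction factors and Ifitm partners, anti-CD40 raised 1 and lowered 3 in B2m-null macrophages, near the 36.8% of all genes called there. Bst2 and Ly6e are also in the type I list, so the counts of these lists are not separate. In monocytes, Bst2, which tethers budding virions, was the 1 of 9 genes that fell in B2m-null isotype tumours (-0.59, adjusted p = 0.0345), where 2.21% of all genes were called. With anti-CD40 in B2m-null tumours, 1 of 9 fell in monocytes (21.2% of all genes called), and in CD8 T cells 1 of 8 rose and 1 fell (8.46%). In control CD8 T cells 2 of 8 rose and 2 fell (37.2%). Zmpste24, a membrane protease known to work with Ifitm proteins, fell with anti-CD40 in B2m-null monocytes (-0.52, adjusted p = 0.0483) and macrophages (-0.57, adjusted p = 7.09e-05). Nedd4, a ubiquitin ligase that acts on Ifitm3, fell by 1.90 in B2m-null macrophages with anti-CD40 (adjusted p = 5.47e-06). Ly6e, another interferon-induced membrane protein, rose in CD8 T cells with anti-CD40 in both genotypes (0.58, adjusted p = 0.00807, and 0.72, adjusted p = 0.000430). Adjusted p in these list paragraphs come from edgeR's quasi-likelihood test.

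Likeness of pattern was measured as Pearson correlation of log2(CPM + 1) over the 24 gate-by-group means, among 10676 genes, as a description with no p. The 24 means share mice, lanes and depth. Ifitm2 and Ifitm3 were closest to each other (0.97), and Ifitm6 followed both (0.79 and 0.86). Ifitm1 was not like the rest (0.16, 0.05 and -0.01 with Ifitm2, Ifitm3 and Ifitm6). Genes most like Ifitm1 were Cytip (0.84), Gpr132 (0.81), Emd and Lsp1 (both 0.80) and Helz2 (0.79). After Ifitm2, Ifitm3 was most like Ms4a6c (0.97), Pnp (0.95), Cdkn1a (0.94) and Gda (0.94), and Ifitm2 was most like Sestd1 and Gsn (both 0.95), Cdkn1a and Cyfip1 (both 0.93). Ifitm6 was most like Gm9733 (0.95), the matrix gene Fn1 (0.94), Nfam1, Capza2 and the interleukin-6 receptor gene Il6ra (each 0.93).

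Of the 3 Ifitm genes outside the members, the highest of the 24 means was 3.72 CPM for Ifitm5, 0.683 CPM for Ifitm7 and 62.8 CPM for Ifitm10, the last in NK cells of B2m-null anti-CD40 tumours. Only 1 of the 3 had counts enough for a test, in the CD8 T and NK gates alone. Ifitm10 passed in CD8 T cells with anti-CD40 in control tumours (1.24, adjusted p = 0.0130 by edgeR), where 37.2% of all genes were called.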

How the data were processed

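Gene UMI counts per barcode were deposited by the authors for 8 lanes as raw counts, and the submitters' processing notes name Cell Ranger 3.0.0, bcl2fastq 2.20.0.422 and build mm10 without their roles. Hashtag counts assigned barcodes to mice (minimum 20 counts, posterior 0.9). Barcodes under 200 detected genes, over 10% mitochondrial UMIs or marked as hashtag doublets were dropped. Cells were gated on marker counts, with thresholds set after seeing those counts. Of 87672 kept cells 51146 were gated, and 45390 of these were assigned to a mouse. Clusters, made without the members, were an alternative. Counts summed per mouse and gate were tested with edgeR 4.0.16 in R 4.3.3 (quasi-likelihood, TMM), in 1 fit per gate over all 4 groups, adjusted over all genes tested. DESeq2 1.42.0, filters, thinning, the lane as unit and leaving out each lane were alternatives. The edgeR step was tested on simulated data. Shares use cells thinned to 1000 UMIs. The 4 members are named throughout, with the 5 genes most like each and the list genes with the smallest adjusted p. Members and lists were chosen with earlier results of these data known. Floors (3 counts) cover counting error only.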

Additional observations from a re-analysis of the deposited data

Results flagged for a closer look

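Of 57 groups of 4 or 5 mice checked for a mouse standing apart from the rest, 5 held one, and chance gives about 5 percent. Ifitm1 in NK cells of B2m-null anti-CD40 tumours was 231 CPM in 1 of 4 mice (35 counts in 70 cells), against 0 to 5.54 CPM in the other 3. Ifitm2 in macrophages of B2m-null anti-CD40 tumours was 602.5 CPM in the lowest mouse and 819.5 to 850.6 CPM in the others. Ifitm3 in CD8 T cells of control isotype tumours was 34.0 CPM in the lowest mouse and 100.1 to 112.6 CPM in the others. Ifitm6 in macrophages was 31.0 CPM in the highest mouse of B2m-null anti-CD40 tumours (others 18.8 to 20.5 CPM) and 62.9 CPM in the highest mouse of B2m-null isotype tumours (others 20.1 to 25.8 CPM).

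The anti-CD40 effect on Ifitm3 in monocytes differed between tumour genotypes by 0.98 on the log2 scale (edgeR adjusted p = 0.00220). Neutrophils, which no comparison used, had a median Ifitm1 of 1857 CPM over 8 mice, above every gate.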

How the results depend on the processing

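Counts of member-and-gate pairs past the threshold moved with the settings. B2m-null against control under isotype went from 1 to 2 with DESeq2, without the low-count filter or thinned, and to 0 with the lane as unit or all cells by lane (0 to 2 leaving out a lane). Under anti-CD40 it went from 0 to 2 without the filter or thinned, 7 with clusters, 1 with the stricter cell filter, 3 with at least 50 cells and 1 without mixed clusters (0 to 2). Anti-CD40 in control tumours went from 0 to 3 without the filter and 2 with clusters (0 to 1). In B2m-null tumours it went from 4 to 2 with the lane as unit or all cells by lane, and 12 with clusters (3 to 5). The difference of the effects went from 1 to 2 with DESeq2 or thinned, 4 without the filter, 6 with clusters, and 0 with the lane as unit or all cells by lane (1 to 3). With clusters, the share of all genes called across the gates of each comparison was 0.62% to 12.3% between genotypes under anti-CD40, 2.31% to 31.7% and 8.95% to 33.7% with anti-CD40 in control and B2m-null tumours, and 2.06% to 17.2% for the difference. The counts between genotypes under anti-CD40 include CD4 T pairs, 2 of the 7 with clusters, which are a description only. The cause was not tested. Of 137 alternatives for single called changes 14 lost the call, 0 reversed and the rest kept it. The share of monocytes with Ifitm3 was 90.0% thinned and 96.8% unthinned. The labels do not say what a replicate number shares, and with 2 numbers the samples were not taken as paired. Of 18 correlations (-0.112 to 0.240) 7 were over 0.1, and 5 of these lay between B2m-null isotype and B2m-null anti-CD40, the groups of the main anti-CD40 calls; with the replicate block, anti-CD40 in B2m-null tumours gave 5 pairs and the genotypes under isotype 1. Calls over all genes moved too. With the lane as unit they went from 191 to 0 in monocytes between genotypes under isotype (369 without the low-count filter) and from 543 to 18 for the monocyte difference. By that unit, calls with anti-CD40 in B2m-null tumours went from 1830 to 738 in monocytes, 4423 to 2688 in macrophages, 805 to 3 in CD8 T cells and 167 to 6 in CD4 T cells. With clusters that comparison gave 615 in monocytes, and in dendritic cells 1049 against 124 in the gate. In CD8 T cells the last comparison gave 1415 with the replicate block and 234 thinned, and in CD4 T cells 306 with the replicate block, 106 with DESeq2 and 1669 with clusters. Of 1344 alternatives for list counts 207 moved by over 1.5 times. Control anti-CD40 had 2 mice and the dendritic and CD4 T gates few cells, which limits what could be detected there.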

Other observations

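Neutrophil Ifitm1 per mouse was 1780.0 and 1934 CPM in control isotype, 632 CPM in the 1 control anti-CD40 mouse, 881 and 1751 CPM in B2m-null isotype and 3567, 3822 and 3985 CPM in B2m-null anti-CD40 tumours. The B2m-null anti-CD40 mice lay above the other 5, in 215 cells over all 8 mice and with no test. Ifitm6 in the same cells had a median of 262 CPM. Plasmacytoid dendritic cells had a median of 9.67 CPM of Ifitm1 and 147 CPM of Ifitm3. No Ifitm6 UMI was counted in 347 B cells.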
